A study of Mus musculus with 10 samples.

Results

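The transcripts of 10 proteins that hepatocytes secrete into the blood were followed in libraries of sorted hepatic stellate cells: albumin (*Alb*), transthyretin (*Ttr*), fetuin-A (*Ahsg*), haptoglobin (*Hp*), the apolipoproteins *Apoa1*, *Apoa2*, *Apoc3* and *Apob*, and the fibrinogen chains *Fga* and *Fgb*. They were taken by gene symbol, and all 10 were found among the 25233 entries of the normalized count table that carry a symbol. The hepatocyte is the parenchymal cell of the liver and makes most plasma proteins. Their messenger RNAs are so abundant in liver that they also enter preparations of other liver cells, with whole hepatocytes, with cell fragments or as free RNA, and for this reason they serve as a reading of hepatocyte RNA carried along with a sorted cell.

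The series holds 10 libraries from livers of male C57BL/6J mice. The 5 hypHSC libraries (hypertrophied stellate cells) came from mice fed the CDAHFD, a choline-deficient diet rich in fat that leads to steatohepatitis with fibrosis, for 13 weeks (hypHSC 1 and 2, age 19 weeks) or 12 weeks (hypHSC 3, 4 and 5, age 18 weeks). The 5 qHSC libraries (quiescent stellate cells) came from mice on standard diet, at an age of 36 weeks (qHSC 1, 2 and 5) or 34 weeks (qHSC 3 and 4). Livers of both groups were dissociated with enzymes, cells were floated on a density gradient and then sorted without antibody, hypHSCs on green and qHSCs on blue fluorescence of their droplets. The fatty livers were digested under stronger conditions. Diet, age, digestion and gate changed together and cannot be told apart. The study chose its hypHSC preparations by RNA quality and also selected its qHSC preparations. Since the mouse behind each library is not known here, *n* counts preparations and a p-value measures the spread between these preparations. In bulk RNA, fewer hepatocytes and less RNA per hepatocyte cannot be told apart.

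The hypHSC libraries held 30534719 to 43283589 reads on genes with a symbol, and the qHSC libraries 35640104 to 47317028. No value of the 10 transcripts came near a floor of 3 reads, the lowest resting on 38 reads (*Apob*) and the highest on 89759 (*Apoa2*). Mitochondrial entries took 12.8% of the reads of hypHSC 1 and 7.27% of hypHSC 2, against 2.21% to 3.42% in the other hypHSCs and 1.25% to 1.61% in qHSCs. As to the labelled cell type, all 10 stellate markers tested, *Lrat*, *Des* and *Dcn* among them, were lower in the libraries labelled hypHSC, where their summed level was 25649 to 59643 normalized counts against 977030.1 to 1399419 in qHSCs. Of 10 macrophage markers, 7 were higher in hypHSCs (*Lyz2* and *Cd68* among them) and 3 were not called (*Clec4f*, *Timd4* and *Marco*). The summed level of the 10 macrophage markers was 966189 to 1355810.0 against 4236 to 112745. By the same rule, given below, 21.7% of all genes tested were lower in hypHSCs and 17.8% higher. Cholangiocyte markers summed to 824 to 8121 in hypHSCs and 11.8 to 66.1 in qHSCs, with *Cldn4* and *Cftr* at 0 in every qHSC library. Neutrophil markers summed to 1842 to 7953 in hypHSCs and at most 418 in qHSCs, endothelial markers to 7782 to 12154 and 1193 to 3231, and erythroid markers to 61.5 to 5061 and 922 to 32206. The endothelial markers did not move together. Of 9 tested, 3 were higher in hypHSCs (*Stab2*, *Stab1* and *Fcgr2b*), 2 lower (*Clec4g* and *Tek*) and 4 not called (*Pecam1*, *Kdr*, *Ptprb* and *Cdh5*). Of 5 erythroid markers tested, 0 were called. The part of these cells in the values below was not tested.

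The plasma protein transcripts were present in all 10 libraries, and only 1 of the 10, *Apob*, was called between the groups, lower in hypHSCs. A gene was called where its fold was 2 or more and its adjusted p 0.05 or less (limma), which held for 39.5% of the 14630 genes tested, for 21.7% with the lower level in hypHSCs and for 17.8% with the higher. At any fold, 48% of the genes and again *Apob* alone of the 10 had such an adjusted p. The libraries of each group differed widely in the amount of the 10. Summed over the 10 genes, they took 0.0799% of the reads on genes in hypHSC 1 (95% Wilson interval 0.0789% to 0.0809%), 0.0873% in hypHSC 2, 0.0382% in hypHSC 3, 0.208% in hypHSC 4 and 0.479% in hypHSC 5 (0.477% to 0.481%). In qHSCs the shares were 0.352%, 0.0882%, 0.196%, 0.282% and 0.231% for libraries 1 to 5. These intervals treat each read as an independent draw. Amplified reads are not independent molecules, so the intervals may be too narrow even for counting error. They are narrower than the gaps between libraries of a group. As summed normalized counts the means were 80898 ± 87987 (SD, *n* = 5) in hypHSCs and 75277 ± 32128 in qHSCs. Without hypHSC 5 the mean of the hypHSCs was 43856. The highest hypHSC library exceeded the lowest 16.7-fold, and the highest qHSC library the lowest 3.89-fold. The sum of the hypHSCs at 13 weeks of diet (32883 and 35628) lay within the range of those at 12 weeks (13752 to 229064), and the sums of the qHSCs at 34 weeks of age (60177 and 91711) lay within those at 36 weeks (29134 to 113455). No whole liver or sorted hepatocyte sample was analysed here, so the shares were not converted into numbers of hepatocytes.

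**Figure D1:**
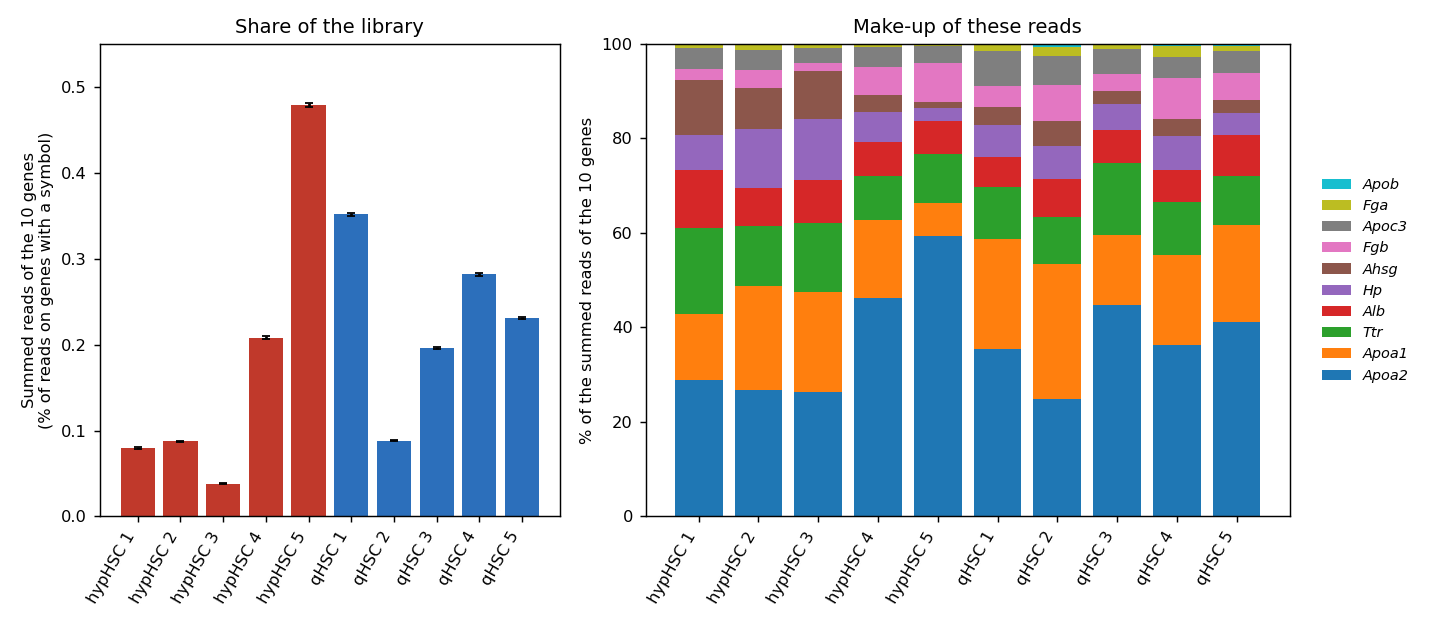
Left, reads of the 10 plasma protein genes as a percentage of the reads on genes with a symbol, 1 bar per library (red hypHSC, blue qHSC; error bars are 95% Wilson intervals). Right, the share of each gene in these reads (%). The bars run from 0.0382% in hypHSC 3 to 0.479% in hypHSC 5, and *Apoa2* grows from 26.4% to 59.3% of these reads between the same libraries.

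*Alb* encodes serum albumin, the most abundant plasma protein and a carrier of fatty acids and bilirubin (GRCm39, chromosome 5, 90608729 to 90624460). It had 4052, 2850.05, 1235, 6711 and 16356 normalized counts in hypHSC 1 to 5 and 6989, 2318, 4195, 6172 and 6985 in qHSC 1 to 5. hypHSC 5 was above every qHSC library, hypHSC 3 below every one of them, and the groups overlapped. *Ttr* (chromosome 18, 20798307 to 20807381), the carrier of thyroxine and of retinol-binding protein, had 5994, 4517, 2002, 8702 and 23502.5 in hypHSCs and 12588, 2947, 9208, 10290.5 and 8628 in qHSCs. The order of the libraries was the same as for *Alb* in the hypHSCs, with hypHSC 3 lowest and hypHSC 5 highest. The log2 fold change, hypHSC over qHSC on the scale of log2(normalized count + 1), was -0.18 ± 0.59 (SE) for *Alb* and -0.29 ± 0.59 for *Ttr*. Neither passed the test (limma, adjusted p = 0.820 and 0.711), and the 95% intervals, -1.49 to 1.13 and -1.59 to 1.01, include changes of more than 2-fold in either direction.

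*Ahsg*, whose product fetuin-A binds calcium phosphate in plasma (chromosome 16, 22710765 to 22718200), had 3823, 3090.2, 1392, 3392 and 2635 normalized counts in hypHSC 1 to 5. Its qHSC values were 4339, 1509, 1564, 3319 and 2295. It was the only one of the 10 genes that was not highest in hypHSC 5, and its range within the hypHSCs, 2.75-fold, was the narrowest of the 10. *Hp* (chromosome 8, 110301760 to 110305804), which captures free haemoglobin and is an acute phase protein, had 2436, 4502, 1797, 5854 and 6342 in hypHSCs and 7871, 2054, 3344, 6622 and 3815 in qHSCs. The log2 fold change was 0.18 ± 0.35 for *Ahsg* (limma, adjusted p = 0.693) and -0.18 ± 0.44 for *Hp* (adjusted p = 0.757). The sign of the change of *Alb*, *Ttr*, *Ahsg* and *Hp* turned under some other scaling, tool or set of libraries.

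The apolipoproteins carry lipid in plasma. *Apoa1* (chromosome 9, 46139928 to 46141767) and *Apoa2* (chromosome 1, 171049133 to 171053948) encode the main proteins of high-density lipoprotein. *Apoa1* had 4551, 7829.6, 2919, 15381 and 16283 normalized counts in hypHSC 1 to 5 and 26553, 8324, 8852, 17580.1 and 16756 in qHSC 1 to 5. hypHSC 4 and 5 were thus in the range of the qHSCs, while hypHSC 1, 2 and 3 were below every qHSC library. *Apoa2* was the most abundant of the 10 transcripts, with 9524, 9537, 3626, 43071 and 135759 in hypHSCs and 40083.5, 7218, 26976, 33180.1 and 33692 in qHSCs. It was higher in hypHSC 5 than in any qHSC library, and hypHSC 3 was below them all. Of the exon bases of *Apoa2*, 25.9% are also annotated to *Gm71631* or *Tomm40l*, and because strand was not used in the counting, reads there cannot be assigned to 1 gene. *Apoc3* (chromosome 9, 46144348 to 46146934), whose product slows the clearance of triglyceride-rich lipoproteins, had 1439, 1489, 459, 3961 and 8326 in hypHSCs. In qHSCs it had 8259.8, 1784, 3133, 4188 and 3722, so that the groups overlapped again. The log2 fold changes were -0.89 ± 0.50 for *Apoa1*, -0.44 ± 0.88 for *Apoa2* and -0.89 ± 0.68 for *Apoc3* (limma, adjusted p = 0.165, 0.707 and 0.301), and none of the 3 passed the test. The sign of *Apoa2* also turned with another tool or set of libraries.

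**Figure D2:**
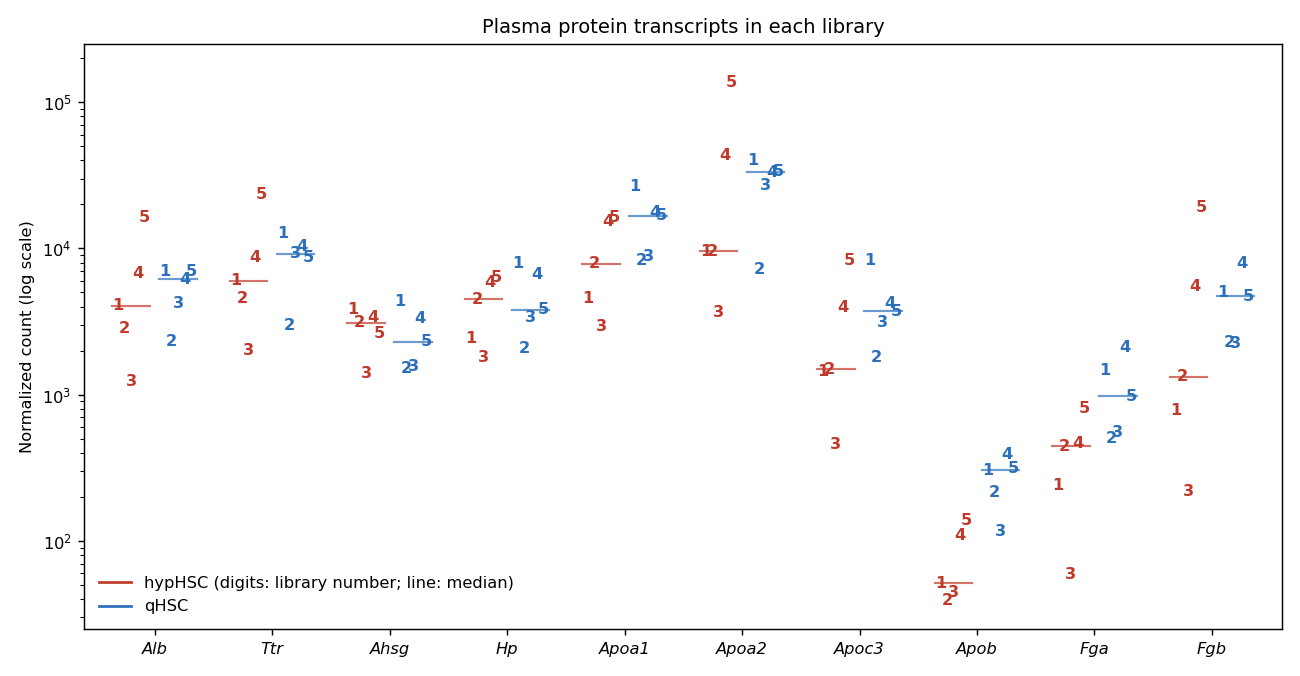
Normalized counts (log axis) of the 10 genes, with each library drawn as its number (red hypHSC, blue qHSC) and the group median as a line. The digit 3 is the lowest hypHSC value in 9 genes and the digit 5 the highest in 9, and the groups overlap in all 10 genes.

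*Apob* was the lowest of the 10 and the only one called. Its protein is the structural core of very-low-density and low-density lipoprotein (chromosome 12, 8027648 to 8066838). It had 51.2, 39.3, 44.1, 108 and 138 normalized counts in hypHSC 1 to 5, with a mean of 76.1 ± 44.2 (SD, *n* = 5). In qHSCs it had 304, 216, 116, 390.2 and 315, with a mean of 268 ± 105. The groups overlapped only in that hypHSC 5 lay above qHSC 3. The log2 fold change was -1.87 ± 0.46 (limma, adjusted p = 0.00629; exact two-sided permutation test, p = 0.0159, where the smallest p the design allows is 0.00794). *Apob* remained called under every alternative that was tried, with adjusted p from 0.000952 to 0.0392.

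The transcript of *Apob*, 13934 bases long, is by far the longest of the 10, the others having 518 to 3810 bases. Fold changes moved with transcript length in these libraries. Over all genes tested, the median log2 fold change was 0.18 for transcripts of up to 1500 bases, -0.24 above that and up to 3000 bases, and -0.26 above 3000 bases, with 16.6%, 20.6% and 23.7% called lower. Among the other hepatocyte genes described below, the medians were -0.50 (23 genes), -0.77 (63 genes) and -1.42 (21 genes), and 47.6% of the last class were called lower. The part of transcript length in the value of *Apob* was not tested.

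Fibrinogen, the clotting substrate, is assembled from the products of *Fga*, *Fgb* and *Fgg*, neighbours on chromosome 3. *Fga* (82933460 to 82940922) had 239, 445, 59.0, 465 and 808 normalized counts in hypHSC 1 to 5 and 1469, 503, 549.5, 2092 and 977 in qHSC 1 to 5. hypHSC 5 alone reached the range of the qHSCs. Its log2 fold change of -1.69 ± 0.66 did not pass the test (limma, adjusted p = 0.0527, exact permutation p = 0.0397), but the value sits at the threshold. Over the alternatives its adjusted p ran from 0.00620 to 0.119, and 7 of 23 put it past the threshold. *Fgb* (82949553 to 82957170) had 775, 1329, 219, 5517 and 18915 in hypHSCs and 4999, 2262, 2239, 7877 and 4721 in qHSCs. It varied most, 86.5-fold between hypHSC 3 and hypHSC 5, against 3.52-fold among qHSCs. Its log2 fold change of -1.06 (limma, adjusted p = 0.402) has a 95% interval from -3.25 to 1.12, and it turned positive with DESeq2 and edgeR.

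**Figure D3:**
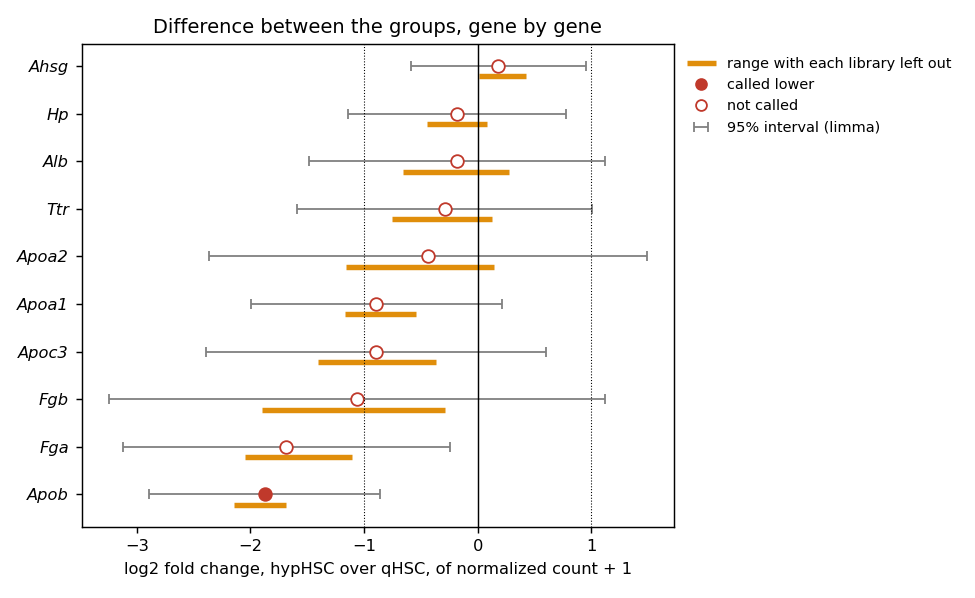
log2 fold change (hypHSC over qHSC) of each gene with its 95% limma interval (grey) and, under it, the range of the estimate with each library left out in turn (orange). The filled point, *Apob*, is the only gene called, and the intervals of 8 genes span 0, all except *Apob* and *Fga*.

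The median log2 fold change of the 10 genes was -0.66, with 9 of them negative, beside a median of -0.20 over all genes tested, of which 8198 of 14630 were negative. These signs depended on the tool, since *Alb*, *Apoa2*, *Ttr* and *Fgb* were positive with DESeq2 and edgeR. The groups overlapped for each of the 10, whereas in 39.5% of the genes tested they did not, 22% with every hypHSC value the lower. Scaling the libraries differently moved all genes together. The median of all genes was -0.54 with equal totals, -0.08 with equal upper quartiles, -0.16 with TMM and -1.12 when *Hprt*, *Pgk1* and *Actb* set the scale, and under equal totals or these reference genes 3 of the 10 (*Apob*, *Fga* and *Apoa1*) were called lower. None of the 10 was called higher under any alternative. In limma, 0 of 10 were higher in the test as reported and at an unadjusted p under 0.05, and DESeq2 and edgeR also gave 0.

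Within a group, the 10 transcripts varied together from library to library. In hypHSCs, hypHSC 3 was lowest for 9 genes (all except *Apob*) and hypHSC 5 highest for 9 (all except *Ahsg*). In qHSCs, qHSC 2 was lowest for 8 genes and qHSC 1 highest for 7, with qHSC 4 highest for *Fgb*, *Fga* and *Apob*. The SD of the log2 values within the hypHSCs had a median of 1.35 over the 10 genes, from 0.57 (*Ahsg*) to 2.50 (*Fgb*), against 0.73 over all genes tested. Within the qHSCs the median was 0.79 for the 10 genes and 0.34 for all genes tested. A smaller SD than these medians was seen in 76.4% of the tested genes in hypHSCs and in 80.6% in qHSCs. Marker sums of other cells did not follow 1 common order. hypHSC 3 had the lowest erythroid sum (61.5) and hypHSC 5 the highest (5061), but hypHSC 5 had the lowest macrophage (966189), endothelial (7782) and cholangiocyte (824) sums of the hypHSCs. In qHSCs, libraries 1 and 4, high in most of the 10 genes, had macrophage sums of 51973 and 112745 against 4236 to 8726 in the others. The erythroid sum was 22615 in qHSC 2, lowest in most of the 10 genes, and 922 to 32206 in the others. The part of these cells was not tested.

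The proportions of the 10 transcripts differed between libraries, and which libraries stood apart depended on the gene. *Apoa2* made up 29.0%, 26.8% and 26.4% of their summed reads in hypHSC 1, 2 and 3, but 46.2% in hypHSC 4 and 59.3% in hypHSC 5. In qHSCs its part was 24.8% to 44.8%. Reads of *Fgb* per read of *Fga* numbered 3.25, 2.99 and 3.70 in hypHSC 1, 2 and 3 and 3.40 to 4.83 in qHSCs, but 11.9 in hypHSC 4 and 23.4 in hypHSC 5. The other chain, *Fgg*, followed *Fgb*. Its ratio to *Fga* was 3.66 to 5.79 in hypHSC 1 to 3, 7.75 in hypHSC 4 and 18.9 in hypHSC 5, while *Fgb* over *Fgg* stayed between 0.640 and 1.53 in all 10 libraries. *Ttr* over *Alb* varied least over the 10 libraries among the ratios examined, 1.30 to 1.62 in hypHSCs and 1.24 to 2.20 in qHSCs. *Ahsg* made up 8.67% to 11.6% of the summed reads in hypHSC 1 to 3, 3.64% in hypHSC 4, 1.15% in hypHSC 5 and 2.60% to 5.18% in qHSCs. *Alb* over *Ahsg* was 0.887 to 1.06 in hypHSC 1 to 3, 1.98 in hypHSC 4, 6.21 in hypHSC 5 and 1.54 to 3.04 in qHSCs. *Alb* over *Apob* was 28.0 to 119 in hypHSCs and 10.8 to 36.2 in qHSCs.

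Base composition also differed between libraries. Genes were divided into 5 classes of like size by GC content. In hypHSC 5 the median log2 deviation from the group mean was 0.35 in the class of lowest GC content and -0.88 in that of the highest. In hypHSC 1, 2 and 3 the slope was the opposite, from -0.15 to -0.04 in the lowest class and from 0.35 to 0.47 in the highest. In qHSCs all values lay within 0.08 of 0. The transcripts of *Apob* (43.5% GC), *Fgb* (44.1%), *Ttr* (45.8%) and *Alb* (47.5%) are on the low side and those of *Apoa1* and *Hp* (56.2% each) and *Ahsg* (53.2%) on the high side. Between hypHSC 1 and hypHSC 5, *Fgb* was 24.4-fold and *Apoa2* (51.9% GC) 14.3-fold higher in hypHSC 5, *Apoc3* (50.6%) 5.79-fold, *Alb* 4.04-fold, *Ttr* 3.92-fold, *Apoa1* 3.58-fold, *Fga* (49.3%) 3.39-fold, *Apob* 2.69-fold and *Hp* 2.60-fold, while *Ahsg* was 0.689 of its level. After each library was corrected for GC content, a step added with the data seen, *Apoa1* was 3.18 higher in hypHSC 5 than in hypHSC 1 on the log2 scale in place of 1.84, *Hp* 2.73 in place of 1.38, *Ahsg* 0.43 in place of -0.54 and *Fgb* 4.38 in place of 4.61. The corrected SD of the hypHSCs was larger than the uncorrected one for 7 of the 10 genes, all except *Ttr*, *Fgb* and *Apob*. With the correction, 1 of the 10 genes was again called lower.

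**Figure D4:**
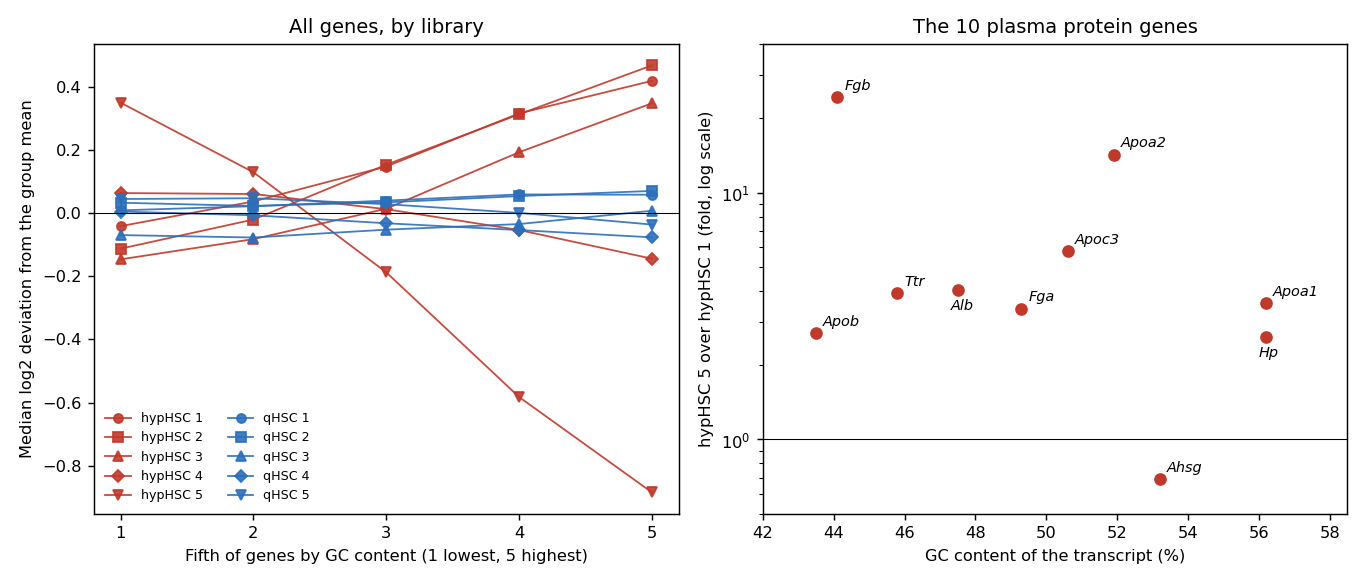
Left, median log2 deviation of each library from its group mean in 5 classes of genes by GC content (red hypHSC, blue qHSC). Right, fold of hypHSC 5 over hypHSC 1 (log axis) against the GC content of the transcript (%) for the 10 genes. hypHSC 5 falls from 0.35 to -0.88 on the left, and on the right *Fgb* and *Apoa2* stand highest at 24.4 and 14.3 while *Ahsg* alone lies under 1.

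Compared per length, *Apoa2* was the most abundant of the 10 and *Apob* the least. FPKM (fragments scaled to the length of the coding sequence and to library size) had a median of 3106 for *Apoa2* in qHSCs, followed by *Ttr* (679.7), *Apoa1* (597), *Apoc3* (243), *Hp* (105), *Alb* (104), *Fgb* (92.3), *Ahsg* (68.1), *Fga* (11.6) and *Apob* (0.657). In hypHSCs the median FPKM was 764 for *Apoa2*, 330.3 for *Ttr*, 242 for *Apoa1*, 106 for *Hp*, 84.5 for *Apoc3*, 79.7 for *Ahsg*, 54.0 for *Alb*, 22.6 for *Fgb*, 4.39 for *Fga* and 0.0918 for *Apob*. The ranges of neighbours in this order overlapped, with the exception of *Fga* and *Apob* in either group and of *Ahsg* and *Fga* in qHSCs. Per base of the whole annotated transcript, *Apoa2* stayed first and *Fga* and *Apob* last, while *Apoc3* moved to place 7, since its annotated transcript (2434 bases) is long for a coding part of 432 bases. All annotated exons of *Apoa2* together cover 4350 bases against a coding part of 306, and 25.9% of them are shared with other genes. Its values per length may therefore be too high, and by how much was not tested. Among all genes with a symbol, ranked by normalized count within a library, *Apoa2* took places 37 to 1298 in hypHSCs and 84 to 694 in qHSCs, *Alb* places 419 to 3335 and 724 to 2231, and *Apob* places 8476 to 12456 and 6685 to 9860.

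Transcription of such genes in hepatocytes depends on factors such as HNF4 and C/EBP, which bind close to the start site. The 200 bases before the annotated start (GENCODE, GRCm39) were searched on both strands for C/EBP (TTGCNNAA), HNF4 (CAAAGNNCA) and the TATA box (TATAAA). Shown here are *Fgb*, the gene with the widest spread, *Apob*, the gene called, and *Apoa1*, in which none of these letters was found, each read 5′ to 3′ on the strand of the gene with matches in capitals. For *Fgb* the window is chr3:82957171-82957370 (minus strand), for *Apob* chr12:8027448-8027647 (plus strand) and for *Apoa1* chr9:46139678-46139877 (plus strand). No matches overlapped within these windows.
Fgb: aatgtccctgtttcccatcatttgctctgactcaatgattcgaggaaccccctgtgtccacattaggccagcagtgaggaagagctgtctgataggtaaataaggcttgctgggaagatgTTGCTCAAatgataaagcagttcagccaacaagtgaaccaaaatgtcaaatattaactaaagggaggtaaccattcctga
Apob: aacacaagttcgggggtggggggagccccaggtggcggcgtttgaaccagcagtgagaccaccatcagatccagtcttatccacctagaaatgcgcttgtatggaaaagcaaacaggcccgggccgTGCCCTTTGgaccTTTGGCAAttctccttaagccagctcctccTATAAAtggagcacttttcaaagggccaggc
Apoa1: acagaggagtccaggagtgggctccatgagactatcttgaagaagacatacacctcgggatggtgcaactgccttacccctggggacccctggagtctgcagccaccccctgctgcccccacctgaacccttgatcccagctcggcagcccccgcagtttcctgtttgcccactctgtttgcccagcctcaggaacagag

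In the window of *Fgb* the capitals mark a C/EBP match at -80 to -73, counted back from -1 at the last base before the start. In that of *Apob* they mark HNF4 (-74 to -66), C/EBP (-61 to -54) and a TATA box (-31 to -26). Over the 10 genes, the C/EBP letters were found in 5 (*Alb*, *Fgb*, *Fga*, *Ahsg* and *Apob*), beside 7.23% of 21751 promoters of the same length. The HNF4 letters were found in 3 (*Apoc3*, *Fga* and *Apob*), beside 4.37% of the promoters. The TATA box letters were found in 2, *Apoc3* (-68 to -63) and *Apob*, beside 9.57%. In *Apoa1*, *Apoa2*, *Ttr* and *Hp* no match was found. No mismatch to these letters was allowed, so a site that differs from them is missed, and a lack of matches does not show a lack of sites. These are matches of letters, not shown to be bound. Of the factors themselves, *Hnf4a* was low, with 4.54 to 116 normalized counts in hypHSCs and 25.5 to 78.7 in qHSCs (log2 fold change -0.50, limma, adjusted p = 0.599). *Cebpa*, unlike the 10 genes, was called higher, with 3355 to 6457 in hypHSCs and 128 to 552 in qHSCs (4.21 ± 0.37, adjusted p = 6.11e-06). C/EBPα is also a factor of the myeloid lineage, and 7 of the 10 macrophage markers given above were higher in the same libraries. Their part in its value was not tested.

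Other hepatocyte genes were taken in 7 lists, with 108 of their 112 entries tested. Of these, 29 were lower (25 by DESeq2 and 20 by edgeR) and 9 higher (10 and 8) in hypHSCs, so that 35.2% were called beside 39.5% of all genes. The median log2 fold change was -0.76 over these genes, -0.66 over the 10 plasma protein genes and -0.20 over all genes tested. Among the 25 intracellular enzymes tested, 4 were lower (*G6pc*, *Gnmt*, *Cyp2f2* and *Cyp8b1*) by limma, *Cyp2f2* with an adjusted p of 0.145 in DESeq2 and 0.193 in edgeR. None was higher by limma, also at an unadjusted p under 0.05, or by DESeq2 or edgeR. The most abundant were not called: *Cyp2e1* (0.24 ± 0.61), *Adh1* (0.29 ± 0.69) and *Cyp3a11* (1.02 ± 1.24), whose products oxidise ethanol and drugs. Of 11 carrier proteins, *Vtn* and *Mup3* (-2.64 ± 0.93) were lower, while *Trf* (0.10 ± 0.31) and *Mup20* (0.50 ± 0.54) were not called. The call of *Mup3* was lost with DESeq2 (-1.31, adjusted p = 0.1996) and edgeR (-1.34, adjusted p = 0.268).

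Calls took 55.6% of the surface receptors and transporters, 46.2% of the coagulation genes, 42.9% of the acute phase genes and 40% of the transcription factors. They took 38.5% of the lipid transport entries, 18.2% of the carrier proteins and 16% of the intracellular enzymes, beside 39.5% of all genes. Of 9 surface receptors and transporters, 5 were lower: the bile acid transporters *Slc10a1* (-1.98 ± 0.72) and *Abcb11*, the fatty acid transporter *Slc27a5* (-2.86 ± 0.60), *Tfr2* and *Slc38a3*, and *Slco1b2* was not called (-1.14 ± 0.65). *Slc10a1* was not called by DESeq2 (adjusted p = 0.0543) or edgeR (0.0918), and *Abcb11*, at -4.89 in limma, was at -2.77 in DESeq2 and lost its call in edgeR (-2.80, adjusted p = 0.0641). Of 26 coagulation factors and protease inhibitors, 10 were lower and 2 higher (*F7* and *F10*). Of those lower, *Serpina1e* and *Serpina3k* were not called by DESeq2 (adjusted p = 0.0503 and 0.0662) or edgeR (0.0804 and 0.115), nor *Itih1* by edgeR (0.0659). The most abundant of them, *Pros1* (protein S), fell from 9303 to 18564 normalized counts in qHSCs to 1373 to 2315 in hypHSCs (-2.87 ± 0.21, limma, adjusted p = 1.34e-06). *Serpina1c* (-0.50 ± 0.40) and the joint entry of *Serpina1a* and *Serpina1b* (-0.50 ± 0.42), near-identical copies whose reads may be split between them, were not called. Among 13 lipid transport entries 4 were lower (*Apoa5*, *Apoc1*, *Lcat* and *Mttp*) and 1 higher, the joint entry of *Apoc4*, *Apoc2* and *Apoc2l*. *Apoe*, which macrophages and stellate cells also make, had 88855 to 1306746 normalized counts in hypHSCs and 153995 to 582005 in qHSCs, and was not called (0.29 ± 0.68), *Apoc1* was lower (-1.24 ± 0.39) and *Pltp* had -0.75 ± 0.22. *Lcat* was not called by DESeq2 (adjusted p = 0.0817) or edgeR (0.119), nor *Apoc1* by edgeR (0.0552). Of 14 acute phase genes, *Itih4* (-3.94 ± 0.75) and *Cp* (-2.56 ± 0.33) were lower, *C3*, *Lcn2*, *Lbp* and *Serpina3n* higher, and *Orm1* not called (-0.31 ± 0.64). Among 10 transcription factors tested, the bile acid receptor *Nr1h4* (-5.19 ± 0.27) and *Creb3l3* (-2.26 ± 0.39) were lower and *Cebpa* and *Prox1* higher, *Prox1* not by edgeR (adjusted p = 0.0858). Not all genes of the lists followed the plasma protein genes between libraries. In qHSC 2, lowest in most of those, *Cp* (21248), *Itih4* (7635) and *Nr1h4* (8478) had their highest qHSC values, and *Pros1* had 15071. By contrast, *Apoc1*, *Orm1*, *Serpina1c*, *Slc10a1*, *Slc27a5* and *Slco1b2* had their lowest qHSC values there. Whether hepatocytes were the source of the genes called was not tested.

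**Figure D5:**
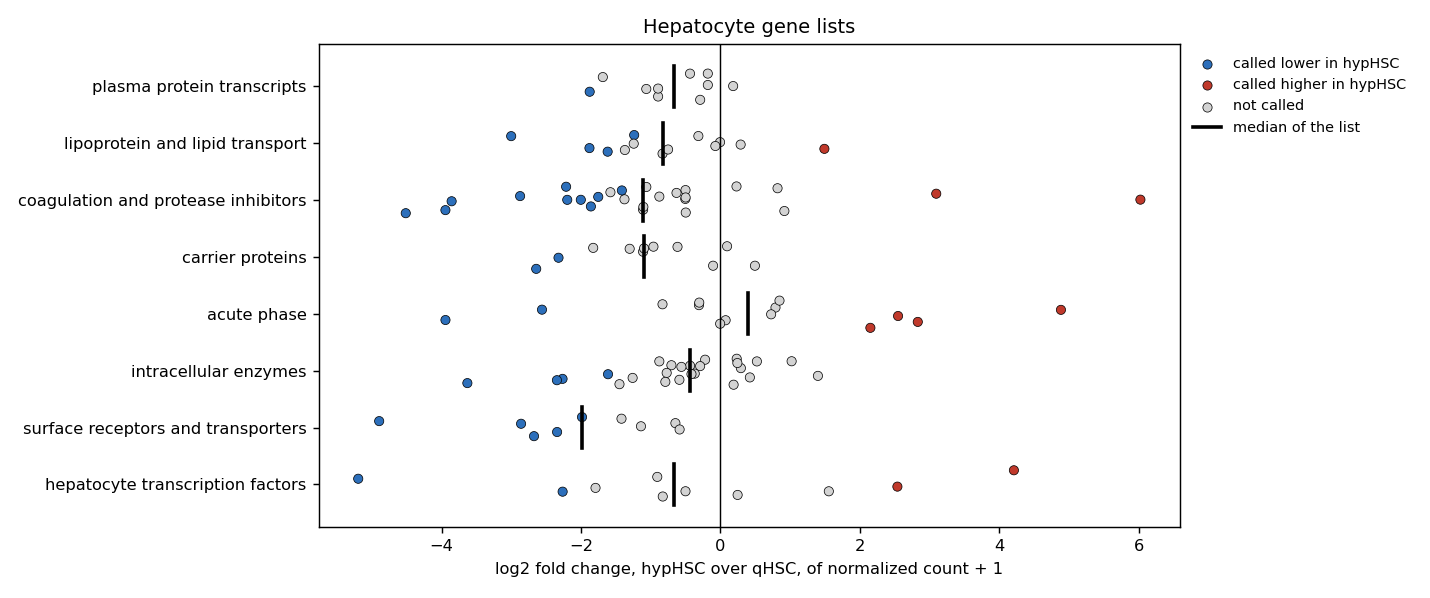
log2 fold change (hypHSC over qHSC) of each tested gene in the 10 plasma protein transcripts and in 7 lists of other hepatocyte genes, with blue for genes called lower, red for genes called higher, grey for the rest and a black line for the median. The plasma protein row holds 1 called gene and a median of -0.66, and the medians of the other lists run from -1.98 (surface receptors and transporters) to 0.40 (acute phase).

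The genes whose pattern over the libraries was most like the 10 were sought by the Pearson r of their log2 deviations from the group means with the mean deviation of the 10, over 10 libraries and 12318 genes whose normalized counts averaged 50 or more. This is a description, as the libraries share their base composition and depth across genes. The 8 closest were *Apoh* (r = 0.986), *Hrg* (0.985), *Mup10* (0.982), *Mup22* (0.981), *Cideb* (0.980), *Mup3* (0.977), *Serpina3k* (0.977) and *Mbl1* (0.972). *Apoh*, *Hrg*, *Serpina3k* and *Mbl1* encode plasma proteins, the Mup genes major urinary proteins that the liver secretes, and *Cideb* a lipid droplet protein. The Mup genes are near-identical copies, so their single values are uncertain. *Apoh* ran from 89.0 in hypHSC 3 to 2042 in hypHSC 5, as the 10 genes did, and from 405 in qHSC 2 to 1426 in qHSC 1. The 101 genes of the other hepatocyte lists that were compared had a median r of 0.75 against -0.12 over all genes compared, and 21 of them were among the 100 closest. Of the 10 genes, each part of the mean itself, *Apoc3* was closest to it (0.980) and *Ahsg* farthest (0.652).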

How the data were processed

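RNA of 5 hypHSC and 5 qHSC preparations was copied from its poly(A) tail, amplified and sequenced without strand (paired reads of 59 bases). The authors mapped the reads with STAR to mm39 (GRCm39), counted them with featureCounts (Subread 1.5.0) on FAST DB annotations and divided the counts by DESeq2 size factors. The deposited values are therefore a signal per gene, the normalized count. In every library 100% of the values became whole reads, within 0.02 reads, after multiplication by 1 factor, 0.661 to 1.20 in hypHSCs and 1.10 to 1.33 in qHSCs.

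Genes that carry a symbol and reached 10 normalized counts in 5 or more libraries were compared as log2(normalized count + 1) with limma 3.58.1 (intensity trend, R 4.3.3) and Benjamini-Hochberg adjustment over 14630 genes. The pseudocount of 1 understates changes of low genes. Single genes also had an exact permutation test (scipy 1.17.1). Alternatives were another pseudocount, filter or scaling, DESeq2 1.42.0 or edgeR 4.0.16 on recovered reads, the replicate number as a block, 12-week hypHSCs only, each library left out and, added after seeing the data, a correction for GC content. The steps were tested on simulated data with the same spread in both groups and no trend with GC content. The real libraries differ from this in both respects, so the simulation does not cover them.

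The plasma protein genes, the lists and the tests were chosen with earlier results of these data known. Named genes are the 10 plasma protein genes, the 3 most abundant of each hepatocyte list and the 8 most alike genes. *Hnf4a*, *Fgg*, *Abcb11*, *Vtn* and other genes named as called were added after their values were seen, and *Tomm40l*, *Gm71631* and the genes of other cell types are named as annotation or markers. GC content was known for 96.4% of tested genes. Sequences are from GRCm39 with GENCODE starts. Some genes of the lists enter counts and sums but are not reported here by name.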

Additional observations from a re-analysis of the deposited data

Results flagged for a closer look

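In hypHSC 5, *Fgb* had 18915.1 normalized counts, and its distance to the next hypHSC library (5517, hypHSC 4) was 0.717 of the whole range of the 5 hypHSCs. This narrowly passed the limit of 0.71 that marks a value as far from the others. The distance was taken on normalized counts, not on the log2 scale of the tests, and counts stretch the upper end of a range. Of 26 sets of 5 libraries looked at in this way it was the only one marked, and chance marks about 1 in 20 where values are normally distributed, which was not checked for these counts. hypHSC 5 also had the lowest size factor (0.661) and the steepest dependence on GC content, and their part in the value was not tested.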

How the results depend on the processing

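Of the 230 alternative values of the 10 fold changes, 202 kept their direction and their side of the threshold, 9 moved past it and 19 turned in sign. The number of plasma protein genes called lower was 1, and it was 2 with a pseudocount of 5, with DESeq2 and with the replicate block, 3 with equal totals and 3 with the reference genes. Leaving out each library gave 1 to 2, with 2 without hypHSC 5 or without qHSC 2. The number called higher was 0 throughout. Other hepatocyte genes called lower numbered 29, but 57 with the reference genes and 19 with GC correction, and 19 to 39 with each library left out, the lowest without qHSC 1.

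The signs turned as follows. With DESeq2 and edgeR the log2 fold change became 0.33 and 0.31 for *Alb*, 0.64 and 0.61 for *Apoa2*, 0.13 and 0.11 for *Ttr* and 0.41 and 0.37 for *Fgb*. With 12-week hypHSCs only it became 0.058 for *Alb*, 0.18 for *Apoa2* and -0.045 for *Ahsg*. *Ahsg* had -0.17 with equal totals and -0.76 with the reference genes, and *Hp* had 0.11 with GC correction. With each library left out, *Alb* ran from -0.66 to 0.27, *Apoa2* from -1.16 to 0.14, *Ttr* from -0.76 to 0.13 and *Hp* from -0.44 to 0.084, each positive without hypHSC 3, and *Hp* also without qHSC 1 (0.043). The causes were not tested.

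The replicate block moved *Fga* past the threshold (log2 fold change -1.69, limma, adjusted p = 0.0241) and changed no other call of the 10. Same-numbered libraries had deviations correlated at r = 0.008 to 0.129, and not every library correlated best with its own number, so the numbers were not taken as pairs. *Fga* was also past it with a pseudocount of 5, equal totals, the reference genes and DESeq2, and without hypHSC 5 or qHSC 2, and *Apoa1* with equal totals and the reference genes. The summed level had a mean of 43856 to 97684 in hypHSCs and 65732 to 86812.5 in qHSCs with each library left out. Depth did not limit these genes, since the lowest value rested on 38 reads.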
